A study of Mus musculus with 12 samples.

Results

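Transcription factors of newborn interneurons, and of the projection neurons born beside them, were followed through the H3K4me3 landscape of the embryonic mouse forebrain. The 9 genes, of 21951 protein-coding genes in the annotation, are Sox6, Satb1, Maf, Prox1, Npas1, Npas3, Zeb2, St18 and Etv1, and they were taken by name as postmitotic fate factors, without a threshold on any value measured here. For each gene, every peak within 5 kb of any annotated transcription start site (TSS) was collected, together with peaks elsewhere in the gene body. Gene positions are those of the GENCODE M21 annotation on GRCm38, counted from 1.

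H3K4me3 was profiled by CUT&Tag, in which an antibody-tethered Tn5 transposase cuts and tags DNA beside the modified histone, in the medial (MGE), lateral (LGE) and caudal (CGE) ganglionic eminences and the cortex (CTX) of wild-type C57BL/6J mouse embryos. The study describes this assay at E12.5, while its dissection protocol, like that of the labels, names both E12.5 and E14.5 without assigning a stage to each library, and embryos were pooled before nuclei were taken. The 12 libraries represent 2 biological replicates per region, which were merged before peaks were called, so each region is 1 list of peaks and no value below carries a replicate error or a test. As written, the protocol mixes nuclei of all 4 regions in equal number for the CUT&Tag reactions, yet each library carries the name of a single region. The sources used here do not resolve this, so how far each list holds 1 region alone rests on its label and on the regional markers given below. In all groups the tissue was whole dissected tissue, holding dividing progenitors and newborn neurons together, so fewer cells carrying a mark and less mark per cell cannot be told apart.

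The ganglionic eminences are transient swellings of the ventral forebrain in which GABAergic neurons are born. Interneurons destined for the cortex and hippocampus come mainly from the MGE and CGE, the LGE makes striatal projection neurons and olfactory bulb interneurons, and the cortex makes excitatory neurons. As cells leave the cycle, transcription factors of the kind studied here take over from the patterning genes and direct migration, subtype and maturation. H3K4me3 lies over promoters that are active or poised, and the broadest domains are often found at genes of cell identity.

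A few stretches of DNA at or beside the starts and peaks described below are shown to let a reader see how CpG-poor or CpG-rich they are. CpG dinucleotides are in capitals, and each sequence was read from the GRCm38 genome on the transcribed strand. The first 2 are the 250 bases just before a group of TSSs that was under a peak in some lists and not in others. They are Npas1 start group 2 (chr7:16476781-16477030, minus strand) and Sox6 start group 4 (chr7:116031048-116031297, minus strand), where groups are numbered from the 5′ end of the gene. Both lie within a longer transcript of the same gene and outside its annotated exons. At Npas1 the CGE peak ended at position 16476804 and the LGE peak at 16476574, so most of that stretch lay outside every peak. The last 3 are the cores shared by gene body peaks, from an Npas3 intron (chr12:53292714-53293013, plus strand), an Npas3 coding exon (chr12:54067903-54068098, plus strand) and an St18 intron (chr1:6760663-6760781, plus strand).
Npas1 group 2: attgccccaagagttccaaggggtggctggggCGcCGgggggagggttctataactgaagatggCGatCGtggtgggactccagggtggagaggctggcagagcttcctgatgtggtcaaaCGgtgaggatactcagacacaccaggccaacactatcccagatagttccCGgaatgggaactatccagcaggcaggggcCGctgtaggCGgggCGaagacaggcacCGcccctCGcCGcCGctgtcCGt
Sox6 group 4: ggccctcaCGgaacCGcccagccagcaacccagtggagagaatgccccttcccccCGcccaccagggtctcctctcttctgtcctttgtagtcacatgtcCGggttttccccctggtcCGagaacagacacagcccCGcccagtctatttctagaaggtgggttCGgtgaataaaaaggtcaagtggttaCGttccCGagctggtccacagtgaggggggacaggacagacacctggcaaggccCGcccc
Npas3 intron: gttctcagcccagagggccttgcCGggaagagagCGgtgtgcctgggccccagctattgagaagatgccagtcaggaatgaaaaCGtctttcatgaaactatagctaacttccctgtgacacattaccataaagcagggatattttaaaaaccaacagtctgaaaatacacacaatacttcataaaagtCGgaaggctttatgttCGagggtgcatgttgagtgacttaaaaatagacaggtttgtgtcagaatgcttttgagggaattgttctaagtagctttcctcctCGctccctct
Npas3 coding exon: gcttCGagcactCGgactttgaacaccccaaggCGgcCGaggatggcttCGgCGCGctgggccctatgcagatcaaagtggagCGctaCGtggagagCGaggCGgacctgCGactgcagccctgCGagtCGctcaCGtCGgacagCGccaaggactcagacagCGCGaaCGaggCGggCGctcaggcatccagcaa
St18 intron: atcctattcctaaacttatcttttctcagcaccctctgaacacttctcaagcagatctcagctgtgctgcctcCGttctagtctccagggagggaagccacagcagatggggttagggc
The Npas1 stretch held 14 CpG in 250 bases and the Sox6 stretch 10. The intronic Npas3 stretch is cut to 300 bases. The Npas3 coding exon held 22 CpG in 196 bases, against 6 in the 300 bases of the intron.

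All 9 genes had a peak within 5 kb of a TSS in the LGE and CGE lists, and 8 of 9 in the MGE and CTX lists. The exception in both was Npas1. Among all protein-coding genes the share with such a peak was 63.8% in CTX, 65.0% in MGE, 64.2% in LGE and 64.6% in CGE. Marking in all 4 lists was seen for 8 of 9 members and for 61.3% of all genes. Most of these transcription factor genes were therefore marked in every region, cortex included, and they differed between regions in how much was covered and which starts lay under the peaks. The peak names carry running numbers, and no number was skipped at the windows of any of the 9 genes, so none of these windows had lost a numbered peak before deposit, although 31 to 64 numbers were skipped in each whole list.

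The lists themselves differed, and so did the sequencing behind them. By the depths that the study gives, every MGE and LGE replicate was sequenced less deeply than every CGE replicate. The libraries numbered 3 in CTX, 3 in MGE, 2 in LGE and 4 in CGE. The part of depth in peak widths, gaps and −log10 q values was not tested. MGE held 25339 peaks with a median width of 563 bp, CTX 21442 at 701 bp, LGE 17284 at 1168 bp and CGE 17752 at 1240 bp. Covered bases are therefore given with a percentile, the share of protein-coding genes with fewer covered bases in the same list with ties counted at their midpoint. Where 4 values stand in a row without region names, their order is CTX, MGE, LGE, CGE. Regional markers were checked by the same measure. Nkx2-1 and Lhx8 of the MGE had no peak in CTX, but all 3 MGE markers were also marked in LGE and CGE. The 3 LGE markers (Gsx2, Isl1 and Ebf1) and the 2 CGE markers (Nr2f2 and Sp8) had a peak in every list. The median percentiles of the MGE markers were 18.1, 98.9, 95.7 and 97.8, highest in MGE. Those of the LGE markers were 42.8, 64.4, 89.5 and 98.6, highest in CGE and not in LGE. Those of the CGE markers were 97.1, 97.7, 98.9 and 98.6, highest in LGE and not in CGE. All 5 cortical markers (Emx1, Neurod2, Neurod6, Tbr1 and Eomes) were marked in all 4 lists, with a median percentile of 88.8 in CTX, 40.5 in MGE, 95.1 in LGE and 94.1 in CGE. Prox1, Npas1, Npas3 and St18 also had higher percentiles in LGE and CGE than in MGE, and the part of cells carrying the cortical markers in those values was not tested. Of 8 markers of vessel, blood, microglial and meningeal cells, 4 were marked in CTX, 5 in MGE, 2 in LGE and 4 in CGE. Their median percentile ran from 17.9 in LGE to 36.1 in MGE. Cx3cr1, Aif1 and Hbb-bt had no peak in any list, Pecam1 had one in MGE alone, Hba-a1 and Col1a1 had one in every list but LGE, and Cldn5 and Foxc1 had one in all 4. Foxc1, a factor of the meninges, was covered over 511 bases in CTX, 1127 in MGE, 1448 in LGE and 2835 in CGE, at percentiles of 42.39, 71.56, 69.71 and 93.82, and its part in the members' values was not tested.

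**Figure D1:**
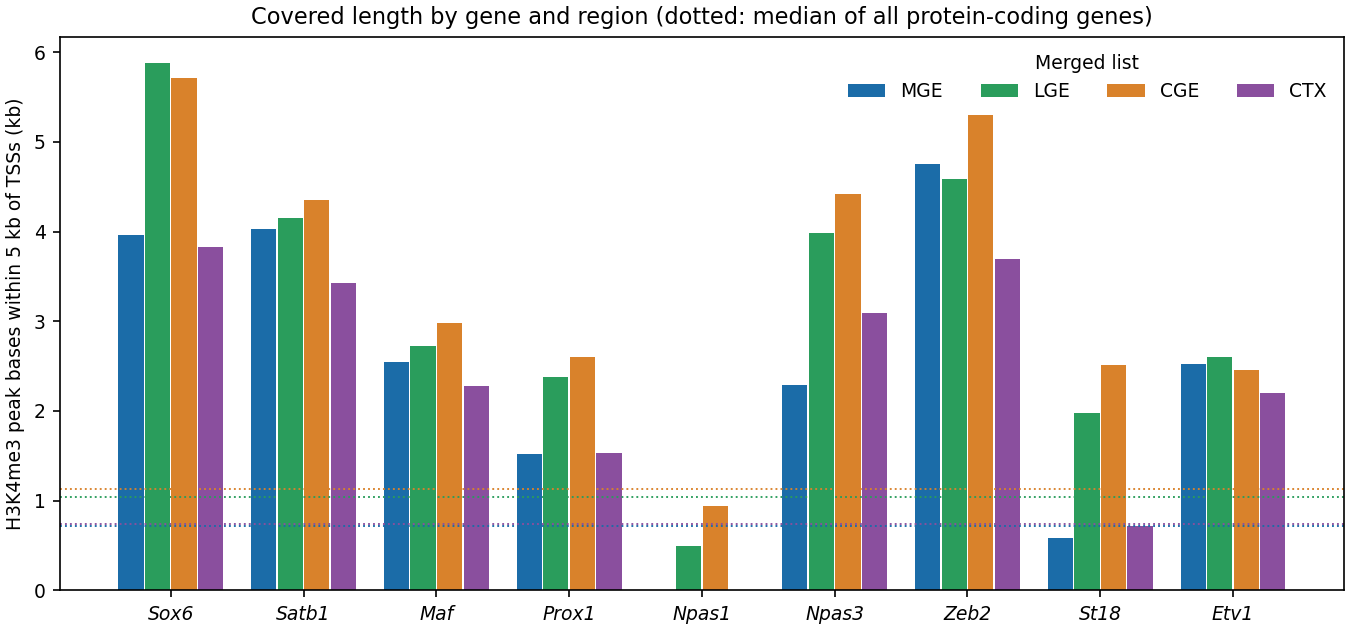
H3K4me3 peak bases within 5 kb of the TSSs (y axis, kb) for the 9 genes (x axis) in the 4 merged lists (bars), with the median of all protein-coding genes in each list as a dotted line. Sox6 and Zeb2 reach 5879 bases in LGE and 5295 bases in CGE, whereas Npas1 has no bar in MGE or CTX and St18 is at 580 bases in MGE against 2506 in CGE.

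Sox6 (chr7:115470872-116038796, minus strand), a SoxD factor needed for the positioning and maturation of MGE-derived interneurons, had some of the longest coverage of any gene. Its peaks covered 3830 bases in CTX, 3966 in MGE, 5879 in LGE and 5711 in CGE. These values placed it at percentiles of 99.52, 99.7, 99.8 and 99.61, so its rank moved by only 0.28 of a percentage point while its covered length moved by more than 2 kb. One peak in each list covers no Sox6 start, and the coding TSS under it belongs to the neighbour 1110004F10Rik. Without it the Sox6 values were 2708, 2814, 4625 and 4318 bases, an alternative chosen after the data were seen. The main Sox6 domain was a single peak of 4318 bp in CGE, 4625 bp in LGE and 2814 bp in MGE, and in CTX it was broken into pieces of 2054, 236 and 418 bp. The antisense transcript Sox6os has a TSS inside this domain in each list, in CTX under the 236 bp piece, which covers no Sox6 start. CUT&Tag peaks carry no strand, so the contribution of each transcript to the mark cannot be told apart.

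Satb1 (chr17:51736187-51833290, minus strand), a chromatin organiser needed for the maturation of somatostatin interneurons, was covered over 3428 bases in CTX, 4030 in MGE, 4154 in LGE and 4354 in CGE. Its percentiles were 99.2, 99.72, 98.85 and 98.7. The gene carried 2 separate domains in every list, at its 5′ end and around an internal start. The upstream one was 1926 bp in CTX, 1819 bp in MGE, 2032 bp in LGE and 2150 bp in CGE. Its internal domain was 1502, 2211, 2122 and 2204 bp. Satb1 was thus covered at both places in every region, and 73.3% of its bases under any list were under all 4.

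Maf (chr8:115682942-115707794, minus strand), a basic leucine zipper factor of MGE-derived interneurons, had 1 peak in each list. It was 2281 bp wide in CTX, 2546 bp in MGE, 2723 bp in LGE and 2978 bp in CGE. Both annotated Maf starts lay under it in all 4 lists. Its percentiles were 95.76, 97.49, 94.52 and 94.65, the highest being in MGE. The domain was nearly the same in every region, with 76.6% of its bases shared by all 4 lists.

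Zeb2 (chr2:44983632-45117395, minus strand), a zinc finger and homeobox repressor that helps to turn ventral cells toward cortical interneuron rather than striatal fate, was covered over 3694 bases in CTX, 4758 in MGE, 4591 in LGE and 5295 in CGE. The percentiles were 99.44, 99.86, 99.3 and 99.47. Its main domain was 2775, 3297, 3620 and 3671 bp wide, and it covered 13 annotated Zeb2 starts in every list. It also covered the starts of the antisense gene Zeb2os and of Gm27761. Smaller peaks differed, and one near the gene's 3′ part (779 bp in CGE and 1029 bp in MGE) was not listed in LGE or CTX.

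Prox1 (chr1:190118035-190170714, minus strand), a homeobox factor of CGE-derived interneurons and of dentate gyrus neurons, was covered over 1530 bases in CTX, 1520 in MGE, 2373 in LGE and 2604 in CGE. The percentiles were 84.74, 85.44, 91.64 and 92.07. In MGE and CTX the promoter was split into 2 peaks with a gap between its start groups (747 and 614 bp in CTX, 874 and 646 bp in MGE). A single peak of 2604 bp in CGE and 2090 bp in LGE spanned the gap. All 3 annotated Prox1 starts lay under a peak in every list, so the lists differed in no Prox1 start. They differed in the stretch between the starts and in how far the mark reached into the gene. On that side the peaks ended at position 190168188 in CGE, 190168679 in LGE and 190168794 in MGE and CTX. The CGE peak alone also covered a start of Gm28172. With peaks less than 1 kb apart joined, the gap closed in MGE and CTX. The percentiles were then 94.16 in CTX, 92.67 in MGE, 91.59 in LGE and 92.02 in CGE. A narrow peak upstream of the gene was listed in LGE (283 bp) and CTX (169 bp). The antisense gene Prox1os shares the peak at the upstream start in all 4 lists.

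Npas1 (chr7:16455721-16477728, minus strand), a bHLH-PAS factor of MGE- and CGE-derived interneurons and of pallidal neurons, was the least covered member. It had 0 covered bases in CTX, 0 in MGE, 494 in LGE and 940 in CGE. The percentiles were 18.08, 17.5, 37.49 and 42.73, where the values in MGE and CTX are the tie shared by all genes without a peak. The CGE peak had a fold enrichment of 7.07 over the caller's background and a −log10 q of 33.52, while the LGE peak had 3.14 and 1.99, a percentile of 3.8 in its list by −log10 q. With peaks limited to a −log10 q of at least 2, Npas1 was marked in CGE and in no other list. The CGE peak (chr7:16475865-16476804) reached TSS group 2, the LGE peak began 206 bp from it, and the nearest MGE and CTX peaks were 13398 and 22993 bp away.

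Npas3 (chr12:53248677-54072175, plus strand), another bHLH-PAS factor, broadly used in neural progenitors and interneurons, was covered over 3089 bases in CTX, 2285 in MGE, 3984 in LGE and 4420 in CGE. The percentiles were 98.73, 96.11, 98.67 and 98.79. Its main peak at the 5′ end was 1194 bp in CTX and 1142 bp in MGE, but 2595 bp in CGE and 2548 bp in LGE, and the remainder came from narrower peaks, on both sides of an internal start and, in MGE (226 bp) and CTX (181 bp), upstream of the main peak. That internal start group had 40 CpG in its 300-base window and an observed over expected ratio of 1.01, the highest of any member start, yet it lay 205 to 580 bp outside the nearest peak in all 4 lists.

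St18 (chr1:6487231-6860940, plus strand), a Myt family zinc finger factor of MGE-derived pallidal projection neurons, had the widest range of percentiles by covered bases. It was covered over 715 bases in CTX, 580 in MGE, 1981 in LGE and 2506 in CGE. The percentiles were 49.17, 44.29, 85.52 and 91.08, a range of 46.79 percentage points. By covered bases St18 was thus low in MGE and CTX and high in CGE and LGE. As a share of its long windows, however, its percentiles were 37.2, 35.9, 39.96 and 42.17, in the same order of lists but low in all 4, and Npas1 then had the wider range, from 17.5 in MGE to 62.65 in CGE. In MGE it was made of 3 narrow peaks of 205, 123 and 252 bp, and joining peaks less than 1 kb apart raised the percentile in MGE to 68.98, after which CTX was lowest at 48.97. The widest St18 peak, in CGE, was at the 75.62 percentile of width, and 4.81% of the bases under any list were under all 4.

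Etv1 (chr12:38779380-38870484, plus strand), an ETS factor of parvalbumin interneurons, olfactory bulb interneurons and layer 5 neurons, had 1 peak in each list. It was 2201 bp wide in CTX, 2524 bp in MGE, 2602 bp in LGE and 2460 bp in CGE. Its percentiles were 95.13, 97.36, 93.75 and 90.48. Etv1 was the member with the largest share of its bases in all 4 lists, 79.1%. Its covered length in CGE was close to that in MGE, and its percentile was lowest in CGE.

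**Figure D2:**
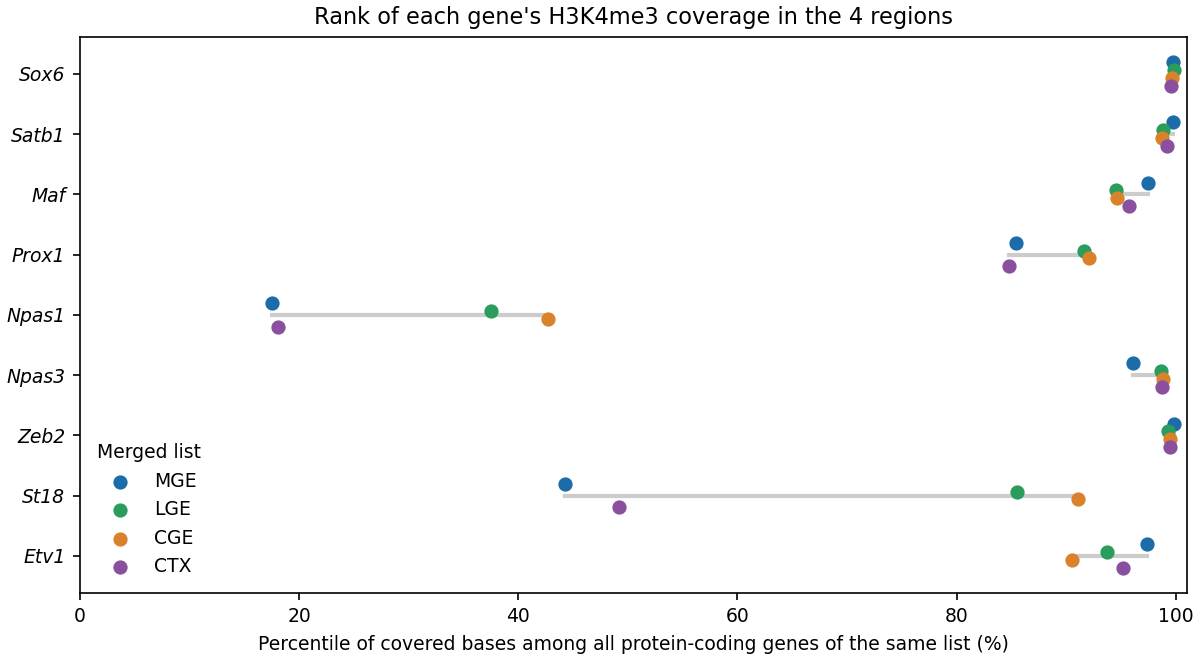
Percentile of each gene's covered bases among all protein-coding genes of the same list (x axis, %) for the 9 genes (y axis), with 1 point per merged list and a grey line over the range. Sox6, Satb1, Npas3 and Zeb2 stay above 96 in all lists, while St18 spans 44.29 to 91.08 and Npas1 17.5 to 42.73.

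Across the 9 genes the median percentile was 95.8 in CTX, 97.4 in MGE, 94.5 in LGE and 94.6 in CGE. The windows of these genes are long because many have numerous starts, and the ranks depend on this. When covered bases were divided by the length of the windows, the medians were 76.2, 82.9, 72.4 and 71.0. With the best single TSS of each gene instead, they were 97.1, 97.6, 96.1 and 94.9. The members had the most covered bases in CGE for 7 of 9 genes and in LGE for 2, but among all genes with a peak in any list 72.8% had the most in CGE, which is close to the members' share. By percentile the highest list was MGE for 4 members (Satb1, Maf, Zeb2 and Etv1), CGE for 4 (Prox1, Npas1, Npas3 and St18), LGE for Sox6 and CTX for none. The same shares over all marked genes were 32.9% for MGE, 17.2% for CGE, 18.5% for LGE and 31.4% for CTX. Several of these calls turned with the processing. With peaks less than 1 kb apart joined, CTX became highest for Prox1 (94.16, against 92.02 in CGE), Npas3 (99.66, against 98.79 in CGE) and Sox6 (99.81, against 99.8 in LGE). With lists cut to equal size by fold, LGE became highest for Zeb2 (99.3, against 82.67 in MGE) and Npas3 (98.67, against 92.47 in CGE). Under both alternatives Satb1, Maf and Etv1 were still highest in MGE and Npas1 and St18 in CGE. With windows at the gene's 5′ end only, CTX became highest for Satb1 (95.48, against 95.09 in MGE) and Zeb2 (62.43, against 41.33 in MGE). Sox6 was then highest in MGE (97.55, against 92.92 in LGE), and St18 had no covered bases in any list. Maf and Etv1 stayed highest in MGE, and Prox1, Npas1 and Npas3 in CGE.

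The widest peaks were examined after the values were seen. A peak in the top 5% of its list by width lay within 5 kb of a TSS for 5 of 9 members in each list, against 5.62% of all genes in CTX, 6.49% in MGE, 4.32% in LGE and 4.33% in CGE. Sox6, Maf and Zeb2 had one in all 4 lists, Etv1 in 3, Satb1 and Npas3 in 2 and Prox1 in 1 (CGE). Npas1 and St18 had none. The shares over all genes include genes without a peak, and they were not matched to the members for window length. The widest Sox6 peak in MGE had a percentile of 99.75 by width and of 25.22 by fold enrichment.

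Each gene's starts were then grouped, joining TSSs less than 500 bp apart, which gave 49 groups. A peak covered a start in 17 groups in CTX, 17 in MGE, 17 in LGE and 18 in CGE. Over all protein-coding genes the share of groups under a peak was 27.2%, 27.3%, 29.0% and 29.8%. Of the 49, 14 groups were under a peak in all 4 lists, 5 in 1 to 3 lists and 30 in none, and over all protein-coding genes the shares were 25.4%, 5.51% and 69.0%. With TSSs within 2 kb joined, there were 37 groups, and 12 were under a peak in CGE and 11 in each other list.

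The 5 groups that differed belonged to Sox6, Npas1, Zeb2 and St18. Sox6 group 4 was under a peak in LGE, CGE and CTX, and 899 bp from the nearest peak in MGE. The CTX peak was 418 bp wide with a fold enrichment of 2.44, a percentile of 0.66 by fold in its list. With lists cut to equal size by fold it was lost, and Sox6 kept 3176 bases in CTX. Npas1 group 2, at position 16476780, was under a peak in CGE alone. That peak ended at 16476804, so the state of this group in CGE rests on the edge of a peak. Zeb2 group 1, at the 5′ end, was under a peak in MGE, LGE and CTX and only 19 bp from one in CGE, so its state in CGE rests on the edge of a peak.

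St18 had 2 such groups. Group 2, with 5 TSSs, was under a peak in MGE, CGE and CTX and 132 bp from one in LGE, and group 3 was under a peak in MGE, LGE and CGE and 4757 bp from one in CTX. The St18 5′ end, group 1, was 45429 to 104060 bp from the nearest peak, so no peak lay at that start, and the St18 starts under peaks were internal. Likewise the 5′ end of Sox6 lay 387 to 534 bp outside the nearest peak in every list, and the Sox6 starts under peaks were internal. In every list that nearest peak was the one over the neighbour 1110004F10Rik, and the main Sox6 domain lay farther away.

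**Figure D3:**
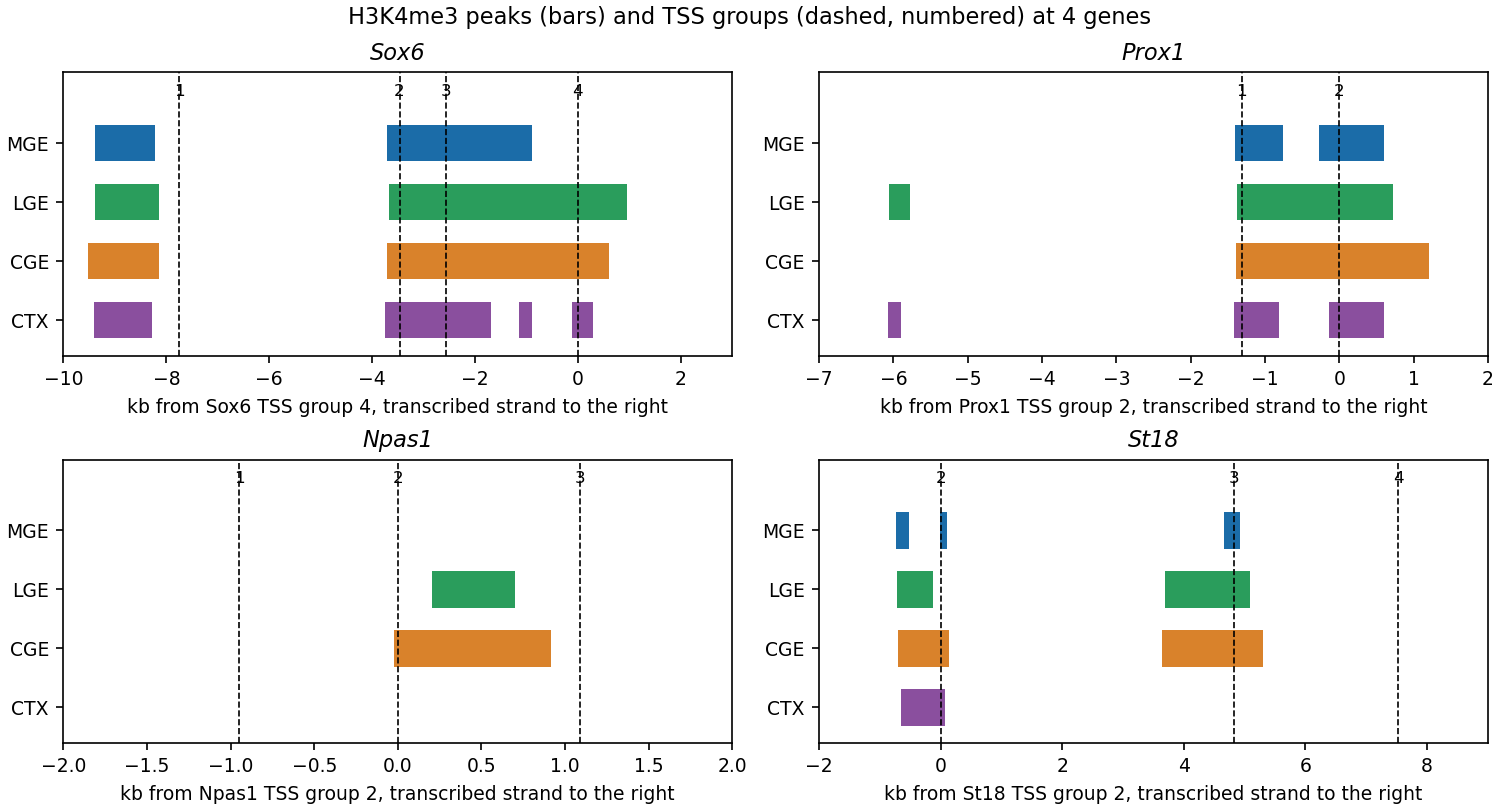
H3K4me3 peaks (bars, 1 row per merged list) and numbered TSS groups (dashed lines) at Sox6, Prox1, Npas1 and St18, drawn by distance from a named TSS group (x axis, kb, transcription to the right). Prox1 is under 1 continuous peak in LGE and CGE and 2 peaks in MGE and CTX, Npas1 has a peak in LGE and CGE only, and the peaks at St18 group 3 are 252 bp in MGE, 1395 bp in LGE and 1667 bp in CGE.

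**Figure D4:**
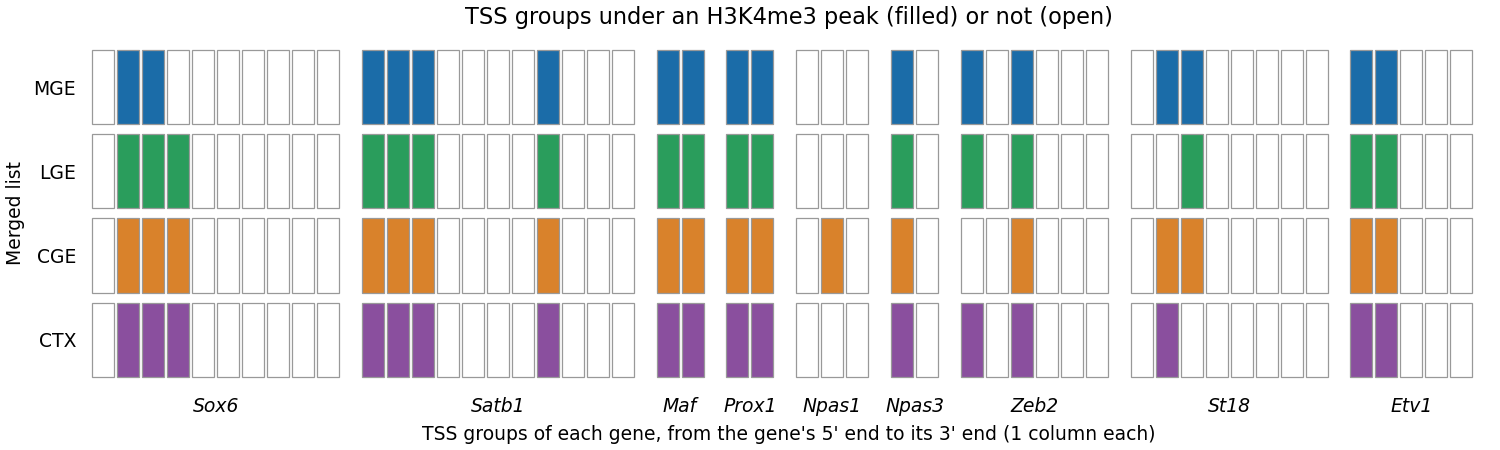
TSS groups of the 9 genes (x axis, 1 column each from the 5′ to the 3′ end) in the 4 merged lists (y axis), filled where a peak covers a start. Of 49 columns, 14 are filled in all rows, 30 are empty and 5 differ between rows.

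The sequence at the starts was read from 250 bases before to 50 after the upstream TSS of each group. A window was called CpG-rich with a GC content of at least 50% and a CpG observed over expected ratio of at least 0.6. Of the 49 groups 11 (22.4%) were CpG-rich, against 21.8% of all groups of protein-coding genes. Among the 14 groups under a peak in all lists, 8 (57.1%) were CpG-rich, against 71.1% over all genes, and among the 30 in no list 2 (6.67%) were, against 2.64%. The median ratio was 0.699 in the former and 0.199 in the latter. Both CpG-rich starts outside peaks were in bHLH-PAS genes, Npas1 group 3 (ratio 0.989) and Npas3 group 2.

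**Figure D5:**
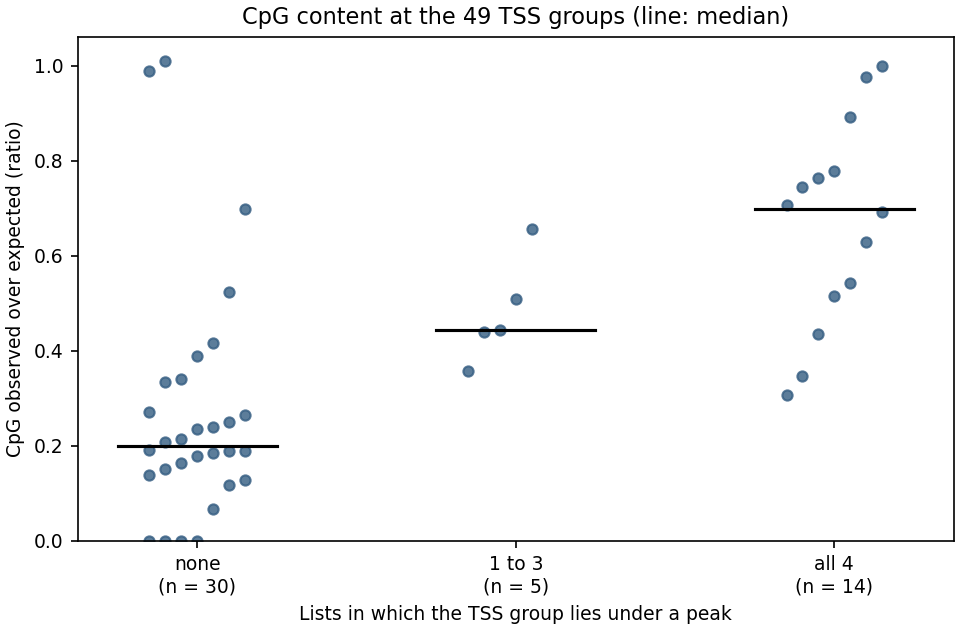
CpG observed over expected ratio (y axis) at the 49 TSS groups, by the number of lists in which the group lies under a peak (x axis), with 1 point per group and the median as a line. The medians are 0.199 for groups in no list and 0.699 for groups in all 4, and 2 points in the first class reach 0.989 and 1.01.

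Letters known from classes of factor active in these cells were counted in the same windows. TAATTA, the core bound by many homeodomain factors, was found on either strand (it reads the same on both) in 4 of 49 windows (8.16%, against 6.17% of all groups), all 4 in groups outside peaks in every list. Over all protein-coding genes, most windows with TAATTA (2817 of 3241) were likewise in groups outside peaks in every list. AACAAT, a Sox-type core searched on both strands, was found in 6 (12.2%, against 12.2%). TATAAA on the transcribed strand was found in 2 (4.08%, against 8.79%), 1 of them at the upstream Maf start.

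Peaks inside the gene bodies, more than 5 kb from any own TSS, were found for 3 members in MGE (Sox6, Npas3 and St18) and for 2 in each of the other lists. Of protein-coding genes of at least 100 kb, the share with such a peak was 35.7% in CTX, 49.1% in MGE, 20.0% in LGE and 20.4% in CGE, and 4 of the members are that long. The Npas3 intron shown above lies about 44 kb from the gene's start and was under a peak in all 4 lists, of 490 bp in CTX, 496 bp in MGE, 770 bp in LGE and 320 bp in CGE. Its fold enrichment was 6.18, 4.55, 3.09 and 2.92, highest in CTX. The Npas3 coding exon near the 3′ end was under a peak in LGE (745 bp), CGE (741 bp) and CTX (214 bp). The St18 intron was under a peak in MGE (119 bp), LGE (382 bp) and CGE (566 bp), and like St18 group 3 it had none in CTX. Sox6 had body peaks in MGE (1) and CTX (3), none shared between lists and all of 123 to 723 bp.

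The bases held in common varied between members. For the 8 genes marked in all 4 lists, a median of 51.8% of the bases under any list were under all 4, from 4.81% at St18 to 79.1% at Etv1. Over all 13463 genes marked in all lists the median was 62.5% and the quartiles 48.9% and 73.3%. Sox6 was at 54.4%, Zeb2 at 49.2%, Prox1 at 45.0% and Npas3 at 40.5%. This measure was chosen after the values were seen.

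Other genes of the same programme were set beside the members by the same measure. Of 15 upstream factors, which pattern the eminences and specify interneurons, 15 were marked in MGE, LGE and CGE and 12 in CTX, where Nkx2-1, Lhx8 and Sp9 had no peak. Their median percentile was 70.2 in CTX, 97.0 in MGE, 98.1 in LGE and 97.8 in CGE. The members' median in CTX was 95.8, or 76.2 when covered bases were divided by window length. That division was not made for the upstream factors, so the sets are not compared at equal window length.

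Of 13 effector genes, which give interneurons their transmitter, peptides and receptors, 6 were marked in CTX, 8 in MGE, 10 in LGE and 11 in CGE, with median percentiles of 18.1, 70.9, 82.0 and 84.9. Slc32a1, the vesicular GABA transporter, was covered over 0 bases in CTX, 3022 in MGE, 4215 in LGE and 4829 in CGE. The peptide genes were lower or absent. Npy had 0, 1111, 1827 and 2032 bases, Sst had 638 in CGE alone, Cck had 1819 in LGE and 2217 in CGE alone, and Vip had no peak. Pvalb had 307 bases in LGE and 246 in CGE, Calb2 had 518 and 346 in the same lists, and Htr3a had 213 in MGE and 396 in CTX.

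All 12 relatives of the members, genes of the same families, were marked in every list. The St18 relatives Myt1 and Myt1l moved most. Myt1 was at percentiles of 41.24 in CTX, 91.76 in MGE, 99.12 in LGE and 98.94 in CGE, and Myt1l at 43.39, 93.43, 98.71 and 99.56. Both were lowest in CTX, and both were above 91 in MGE, where St18 was at 44.29.

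For the 3 members with the largest range, the 2 genes with the nearest set of 4 percentiles were found by Euclidean distance over the 4 lists. For St18 they were Tal1 (distance 4.7) and Hrk (5.81). For Npas1 they were Glra2 (1.64) and Klrb1f (1.69), each with 0 bases in MGE and CTX. For Prox1 they were Cnppd1 and Retreg2 (1.45 each), which have equal values in every list. With 4 points per gene and 1 list per point, these are descriptions of likeness only.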

How the data were processed

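H3K4me3 CUT&Tag libraries (12, 2 replicates in each of MGE, LGE, CGE and CTX) were grouped by their labels. According to the methods the authors aligned reads with Bowtie2 to GRCm38/mm10, removed blacklisted regions and, with Picard, duplicates, merged replicates with SAMtools and called broad peaks with MACS; version, threshold and control are not given in the sources used here. Each of the 4 deposited lists has 9 columns and no header, with a score (not used further), the deposited fold ratio of signal over background, −log10 p (not used) and the deposited −log10 q. The study gives sequencing depth per replicate, but the number of reads behind each peak is unknown, so no interval is given.

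Peaks were intersected (at least 1 bp) with TSSs and bodies of GENCODE M21 genes in Python 3.11.15 with numpy 2.4.6 and pandas 2.3.3. Sequence was read with pysam 0.24.0 from GRCm38.p6, and figures were drawn with matplotlib 3.10.9. The interval code was tested on simulated data. With 1 list per region, no test was made. The 9 members and all gene lists were chosen with earlier results of these data known. Genes outside the 9 were named where marked in 1 to 3 lists, among the 2 of each list with the largest percentile range, or as nearest patterns. The markers other than those, and Vip, were named with their values already known. Some items are not reported here, although counts and medians over lists include them.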

Additional observations from a re-analysis of the deposited data

How the results depend on the processing

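Of the 120 values recomputed, 81 stayed within 1.5 times (counts) or within the Wilson 95% interval over 21951 genes (median percentiles). That interval treats a percentile as a share of all genes and does not measure the spread of the median over the members. The Sox6 covered bases without the neighbour's peak were counted as moved, because any change was counted for them. The medians stayed between 71.0 and 98.2. For MGE, LGE, CGE and CTX in turn they were 98.2, 96.2, 96.6 and 97.1 with windows of 2 kb, 94.5, 90.1, 90.2 and 91.9 with 10 kb, 95.1, 92.9, 93.6 and 95.5 at the gene's 5′ end only, and 97.9, 95.5, 95.7 and 96.6 with starts of coding transcripts only. Divided by window length they were 82.9, 72.4, 71.0 and 76.2. With the best single start, LGE, CGE and CTX gave 96.1, 94.9 and 97.1. Among marked genes only, MGE, LGE and CGE gave 96.0, 91.5 and 91.7. Lists cut to equal size by fold gave 82.7 in MGE, 92.6 in CGE and 82.0 in CTX, since wide peaks of modest fold were then lost. The main Zeb2 domain was gone in MGE (1331 bases left) and CTX (919), and Sox6 in MGE kept 1152 bases, the peak over the neighbour 1110004F10Rik, so that it counted as marked through that peak alone. Joining peaks less than 1 kb apart gave 96.6 in MGE and 94.9 in CTX. Starts joined within 2 kb gave 11 groups under a peak in MGE, LGE and CTX. With a −log10 q of at least 2, members with a gene body peak fell to 1 in CGE. No other count moved by over 1.5 times. No paired analysis was possible because replicates had been merged before peaks were called, and for the same reason no replicate could be left out. The reads behind each peak are unknown, so narrow peaks near the caller's threshold, as at Npas1 in LGE and St18 in MGE, are the least secure.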

Other observations

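The Capture-C probes of the study at members were matched to the genome, after the values above were known. At Prox1, 2 probes of 120 bases (chr1:190169926-190170045 and chr1:190169989-190170108) lie in the stretch between the start groups. Both were wholly under a peak in LGE and CGE and had 0 bases under one in MGE and CTX. At Sox6, the probe at chr7:116030913-116031032 was wholly under a peak in LGE, CGE and CTX and the probe at chr7:116032220-116032339 in MGE, LGE and CGE. In CTX the former lay in the 418 bp piece of low fold enrichment. These are places where the same probe lies in marked chromatin in some regions and outside a listed peak in others. With peaks less than 1 kb apart joined, the gaps between peaks at Prox1 in MGE and CTX and at Sox6 in CTX close.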
